A study of Mus musculus with 16 samples.

Results

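The conjugating enzymes described here are the UDP-glucuronosyltransferases (Ugt), the cytosolic sulfotransferases (Sult), the soluble glutathione S-transferases (Gst) and their microsomal relatives (Mgst). The rule for members uses names and no measured value: every array row whose single platform gene symbol is that of a numbered Ugt, Sult, Gst or Mgst gene was taken. These were 54 rows of 53 genes, out of 30702 genes tested in all, and Sult6b1 was the only member with more than 1 row, of which the brighter was used. The members are 11 Ugt, 19 Sult, 20 Gst and 3 Mgst genes. A further 3 rows that carry several symbols (Ugt2a1 with Ugt2a2, Gm3776 with Gsta1, and Gstp-ps with Gstp2) were left out, and the 9 genes of the Ugt1 family had no listed row and were not analysed here.

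Proximal colon mucosa was profiled by hybridising its RNA to Affymetrix arrays, 1 array per sample. All mice were male C57BL/6J animals that carried a homozygous floxed Mcc gene. In the knockout (KO, VILcreMccf/f) a Cre transgene under the villin promoter, which is active in intestinal epithelium, removes Mcc from those cells, while other cells of the mucosa keep it. The siblings without Cre (Mccf/f) are called wild type (WT). The groups were 4 arrays of KO mice on sulindac, 3 of KO mice on control feed, 3 of WT mice on sulindac and 6 of WT mice on control feed. Sulindac, a non-steroidal anti-inflammatory drug, was fed at 320 ppm for 10 weeks, starting at an age of 6 weeks. From sulindac-fed mice only inflamed mucosa was collected, called lesions here. No label states that the arrays came from separate animals, so p-values measure the spread between these samples, which may be technical. The control tissue was matching normal mucosa of control-fed mice, so an effect of the drug and the choice of inflamed tissue cannot be told apart.

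Conjugating enzymes attach a polar group to drugs, dietary compounds, steroids and bile acids, which makes them easier to excrete. Ugt enzymes sit in the endoplasmic reticulum and transfer glucuronic acid from UDP-glucuronic acid, Sult enzymes transfer sulfate from the donor PAPS, and Gst enzymes couple glutathione to reactive electrophiles. In the intestine they are found mainly in the differentiated epithelium, where they form part of the first barrier against ingested compounds.

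Mcc lay between 6.39 and 6.47 in KO lesions and 6.43 and 6.71 in KO controls, against 7.09 to 7.40 in WT lesions and 7.06 to 7.35 in WT controls, so every KO array was below every WT array. All values here are log2 levels from RMA (robust multi-array average), and the median over all rows ranged from 4.90 to 5.05 by array. A level under 4.90 is called dim, since RMA compresses differences near background. The summed level of 8 pan-epithelial markers was 14.62 to 14.88 in KO lesions and 14.41 to 14.54 in KO controls, and 14.62 to 14.68 in WT lesions against 14.45 to 14.59 in WT controls (log2 of the sum). The summed level of 8 absorptive colonocyte markers was 14.03 to 14.67 in KO lesions and 14.79 to 14.87 in KO controls, and 14.08 to 14.53 in WT lesions against 14.63 to 14.90 in WT controls. Leukocyte markers summed to 9.98 to 11.10 in KO lesions and 8.18 to 8.67 in KO controls, and to 9.73 to 9.95 in WT lesions against 8.10 to 8.26 in WT controls. The 3 hepatocyte markers, which would mark liver tissue where these enzymes are abundant, summed to 6.23 to 6.78 in every array of both genotypes. In mucosa with mixed cells, fewer cells of a type and less RNA per cell cannot be told apart.

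In lesions of both genotypes all 7 Ugt2b genes, 3 of 6 Sult1 genes, 5 of 7 Gstm genes and 3 of 4 Gstt genes were lower than in control mucosa, and Gstp3 and Gsta2 were higher. Calls are those of limma at a p under 0.05 after Benjamini-Hochberg adjustment over all 30702 genes. In the KO response (KO lesions minus KO controls) 23 of 53 members were lower, 43.4% of them, where 12.1% of all genes tested were lower. In the same response 3 members, or 5.66%, were higher, where 8.99% of all genes were. In the WT response (WT lesions minus WT controls) 22 members were lower, 41.5% of them, where 8.37% of all genes were lower. Another 2 members, 3.77%, were higher in WT lesions, where 6.98% of all genes were. The median log2 change of the members was -0.33 in KO and -0.26 in WT, beside 0.0058 and -0.0595 for all genes. The members lower in both genotypes numbered 19, those higher in both 2, and 24 passed in neither.

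The sizes ran further down than up, as the plot of all members shows. Called falls of at least 2-fold were found in 13 of 53 members in KO and 8 in WT, where 1.43% and 0.857% of all genes had one. The only called rise of that size among members was Gstp3 in WT, where 2.35% of all genes in KO and 1.75% in WT had one. The numbers in the sample descriptions form a series under 500 and one over 500, whose meaning is not stated. All lesions and 3 WT controls carry lower numbers, and all 3 KO controls and the other 3 WT controls carry higher ones. With the series as a covariate, which rests on the WT controls alone to link them, 11 members were lower and 0 higher in KO, where 3.66% of all genes were lower and 4.52% higher. With the same covariate 14 members were lower and 2 higher in WT, where 6.83% of all genes were lower and 6.60% higher. Within the lower series 15 members were lower and 3 higher in WT, where 4.99% of all genes were lower and 6.87% higher.

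**Figure D1:**
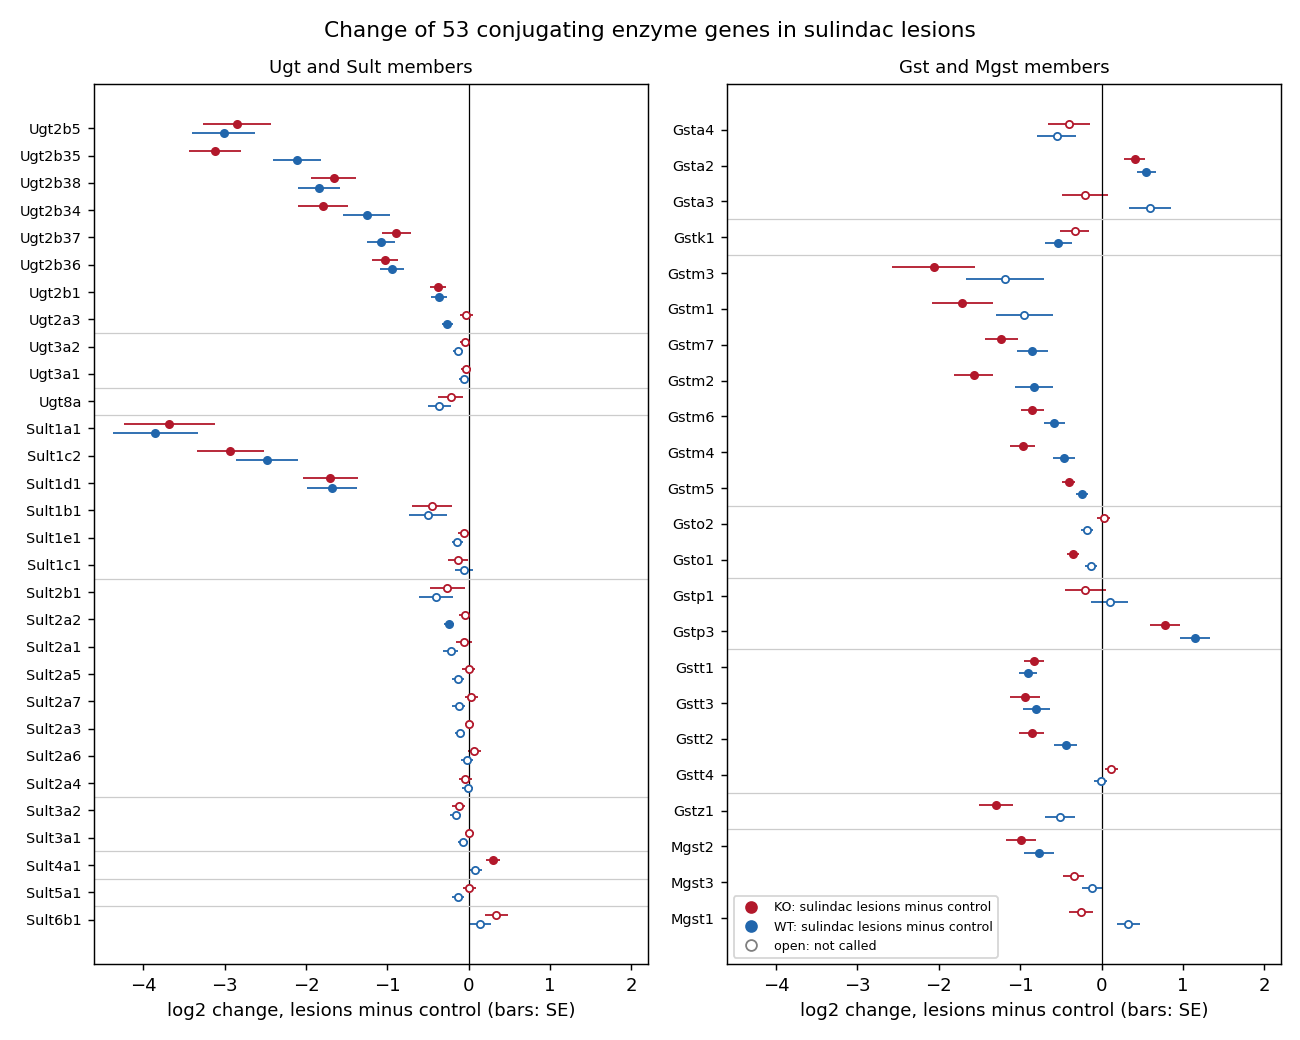
Log2 change of each of the 53 members, lesions minus control mucosa (x axis), with red points for KO and blue for WT, bars for the standard error (SE) and open points for members that limma did not call. Points of Ugt2b5, Ugt2b35, Sult1a1 and Sult1c2 lie furthest to the left in both genotypes, and Gstp3 furthest to the right.

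The Ugt2 genes, which glucuronidate steroids, bile acids and drugs, had 7 of 8 members lower in KO (median -1.34) and 8 of 8 lower in WT (median -1.16). Ugt2b5 was at 3.58, 5.67, 4.07 and 4.06 in the 4 KO lesions and at 6.96, 6.64 and 7.99 in the KO controls. In WT lesions it was at 4.93, 4.29 and 4.04, while WT controls ran from 6.99 to 7.79 with a median of 7.45. Lesions and controls did not overlap in either genotype, and KO lesion 2 was the highest lesion. The log2 change of Ugt2b5 was -2.85 (SE 0.42, limma adjusted p = 0.000151) in KO and -3.01 (SE 0.39, adjusted p = 7.54e-05) in WT. Ugt2b35 had 4.08, 5.99, 4.72 and 4.37 in KO lesions, with 7.97, 7.66 and 8.10 in KO controls. Its WT lesions had 5.57, 5.78 and 5.18, below all WT controls at 7.38 to 7.90 (median 7.59). Its change was -3.12 (SE 0.32, limma adjusted p = 6.63e-06) in KO and -2.11 (SE 0.30, adjusted p = 0.000173) in WT. The larger fall of Ugt2b35 in KO was not called as an interaction of genotype and sulindac (difference -1.01, SE 0.44, limma adjusted p = 0.43).

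Ugt2b34 was lower in lesions from a bright start. KO lesions had 8.69, 10.76, 9.79 and 9.60, and KO controls 11.53, 11.43 and 11.54. WT lesions had 9.82, 10.55 and 10.35, and WT controls 11.34 to 11.62 with a median of 11.51. The controls lay close together and the lesions were spread more widely, again with KO lesion 2 highest among KO lesions. The change was -1.79 (SE 0.31, limma adjusted p = 0.000619) in KO, a 3.46-fold lower level, and -1.25 (SE 0.29, adjusted p = 0.00726) in WT, a 2.37-fold lower level. Without WT lesion 1 the WT change of -1.04 no longer passed (limma adjusted p = 0.0501). Ugt2b38 had 3.79, 4.70, 4.25 and 3.96 in KO lesions and 5.53, 5.39 and 6.60 in KO controls. It had 4.38, 4.19 and 3.76 in WT lesions, against 5.64 to 6.27 (median 5.95) in WT controls. These groups did not overlap, and the change was -1.66 (SE 0.28, limma adjusted p = 0.00046) in KO and -1.84 (SE 0.26, adjusted p = 0.000158) in WT.

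Ugt2b36 and Ugt2b37 were near the dim limit already in controls, so the sizes of their changes are uncertain. The lesion means of Ugt2b5 and Ugt2b38 in both genotypes, and of Ugt2b35 in KO, were dim too, which also makes the sizes of those falls uncertain. Ugt2b36 was at 3.91, 4.39, 3.83 and 3.97 in KO lesions and 4.92, 4.74 and 5.50 in KO controls. In WT it was at 4.01, 4.13 and 3.93 in lesions, below the controls at 4.76 to 5.19 (median 4.97). It fell by 1.03 on the log2 scale in KO and by 0.94 in WT (SE 0.16 and 0.15, limma adjusted p = 0.000306 and 0.000505). Ugt2b37 was at 3.98, 3.99, 3.93 and 3.78 in KO lesions and 4.48, 4.44 and 5.50 in KO controls. WT lesions were at 3.84, 3.82 and 3.75, and WT controls at 4.74 to 5.0 with a median of 4.90. No lesion reached a control in either gene. The change of Ugt2b37 was -0.89 (SE 0.18, limma adjusted p = 0.00197) in KO and -1.08 (SE 0.17, adjusted p = 0.000336) in WT. KO control 3 was above the other KO controls for Ugt2b37, and without it the KO value was -0.55. With the series as a covariate Ugt2b37 lost its KO call (limma adjusted p = 0.117). Ugt2b1 and Ugt2a3 were dim in all 4 groups, with changes of -0.38 and -0.03 in KO and -0.36 and -0.26 in WT, all called except Ugt2a3 in KO. The KO call of Ugt2b1 was lost with that covariate and without KO control 3. Outside Ugt2, the dim genes Ugt3a1, Ugt3a2 and Ugt8a, which makes the galactose-headed lipids of myelin, passed in neither genotype.

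**Figure D2:**
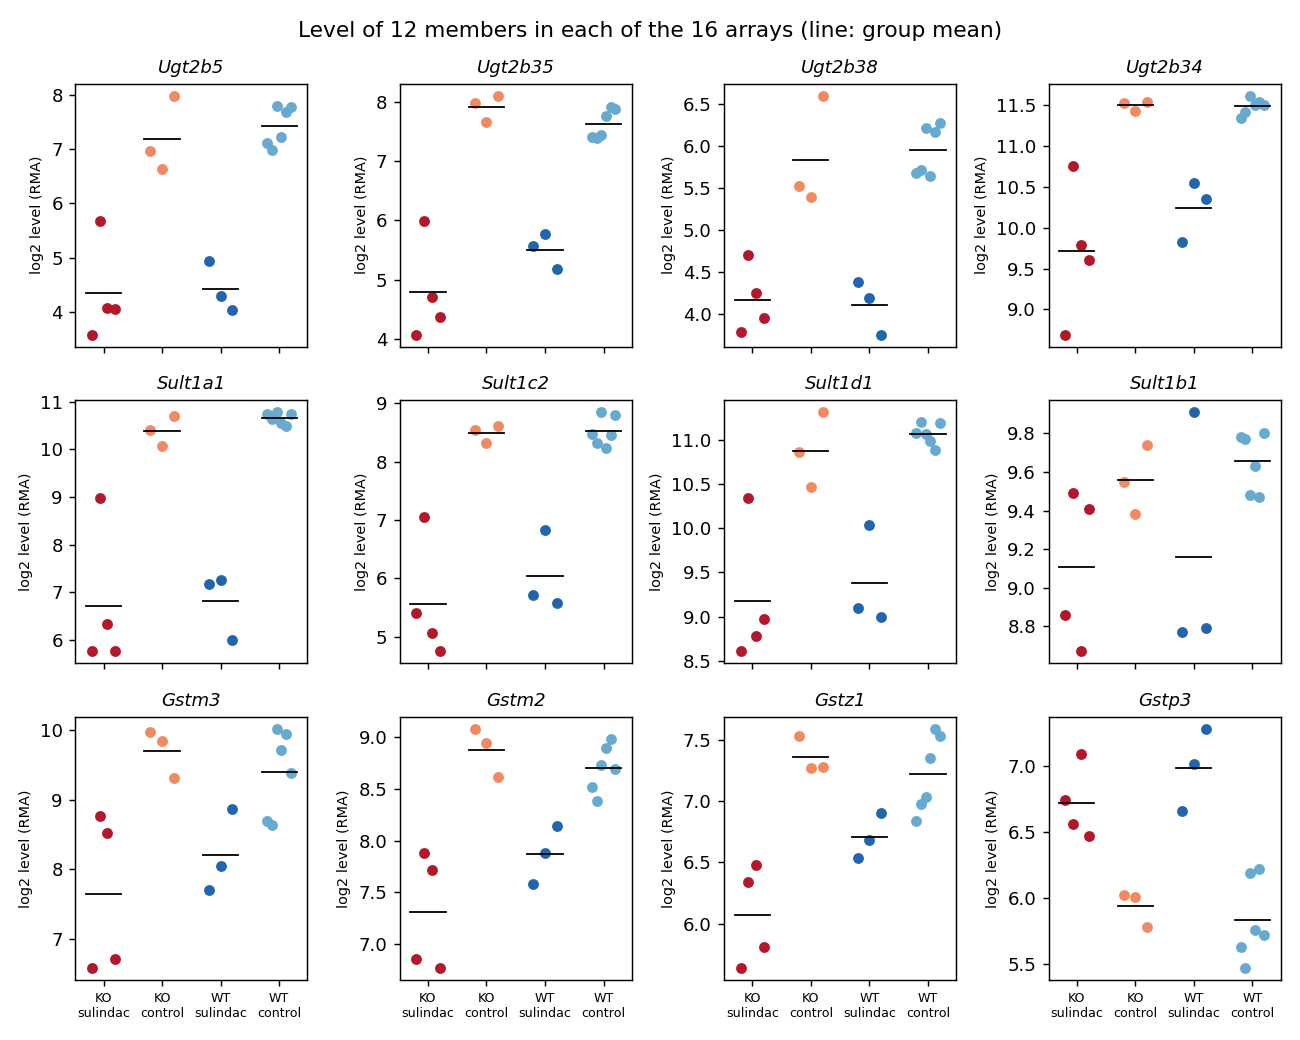
Log2 level (RMA) of 12 members in each of the 16 arrays, 1 panel per gene, with KO sulindac, KO control, WT sulindac and WT control from left to right and a line at each group mean. Lesions lie below controls without overlap in Ugt2b5, Ugt2b35, Ugt2b38, Ugt2b34, Sult1a1, Sult1c2, Sult1d1 and Gstm2, and above them in Gstp3.

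The called Ugt2b genes lie side by side. In the RefSeq gene order of GRCm38.p6, mouse chromosome 5 holds a run of 13 genes with no other protein-coding gene between them. It begins with Ugt2b34, Ugt2b1, Ugt2b35, Ugt2b36, Ugt2b5, Ugt2b37, Ugt2a3 and Ugt2b38 and goes on with Ugt2a1 and Ugt2a2, which are not members, to Sult1b1, Sult1d1 and Sult1e1. All 8 Ugt2 members and Sult1d1 were lower in WT, and all of these but Ugt2a3 were lower in KO. Sult1b1 and Sult1e1, between and beside them, were not called in either, and Sult1e1 was dim in every group. Because neighbours of the same family arose by duplication and are alike in sequence, they are not independent observations. Whether the array's probes tell such copies apart was not tested.

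Sequence just before the start is printed for Ugt2b5, Ugt2b37 and Ugt2b38 because these called genes are the closest copies of the run. RefSeq promoter windows, from 250 bases before to 50 after a gene's start, were at hand for 46 of 53 members (57 windows) and for 32817 starts in all. The 110 bases shown run from 100 before the start. They lie on the minus strand of GRCm38.p6 at chr5:87140331-87140440 for Ugt2b5, chr5:87254779-87254888 for Ugt2b37 and chr5:87424194-87424303 for Ugt2b38. Capitals mark the longest run of bases that is the same in all 3, which is 62 bases long.
Ugt2b5: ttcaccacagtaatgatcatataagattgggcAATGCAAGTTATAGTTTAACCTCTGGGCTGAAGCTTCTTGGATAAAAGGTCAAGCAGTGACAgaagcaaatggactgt
Ugt2b37: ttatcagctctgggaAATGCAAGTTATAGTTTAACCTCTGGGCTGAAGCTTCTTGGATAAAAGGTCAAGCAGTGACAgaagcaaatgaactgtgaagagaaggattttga
Ugt2b38: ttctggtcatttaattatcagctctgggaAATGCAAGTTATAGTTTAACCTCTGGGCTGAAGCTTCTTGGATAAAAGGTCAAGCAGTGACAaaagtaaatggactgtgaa

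The shared run began 68 bases before the start in Ugt2b5, 85 in Ugt2b37 and 71 in Ugt2b38. Over the whole window Ugt2b37 and Ugt2b38 were 94.8% identical, Ugt2b38 and Ugt2b5 87.0% and Ugt2b37 and Ugt2b5 86.1%, while the other pairs of Ugt2 members were between 51.5% and 66.3% identical.

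**Figure D3:**
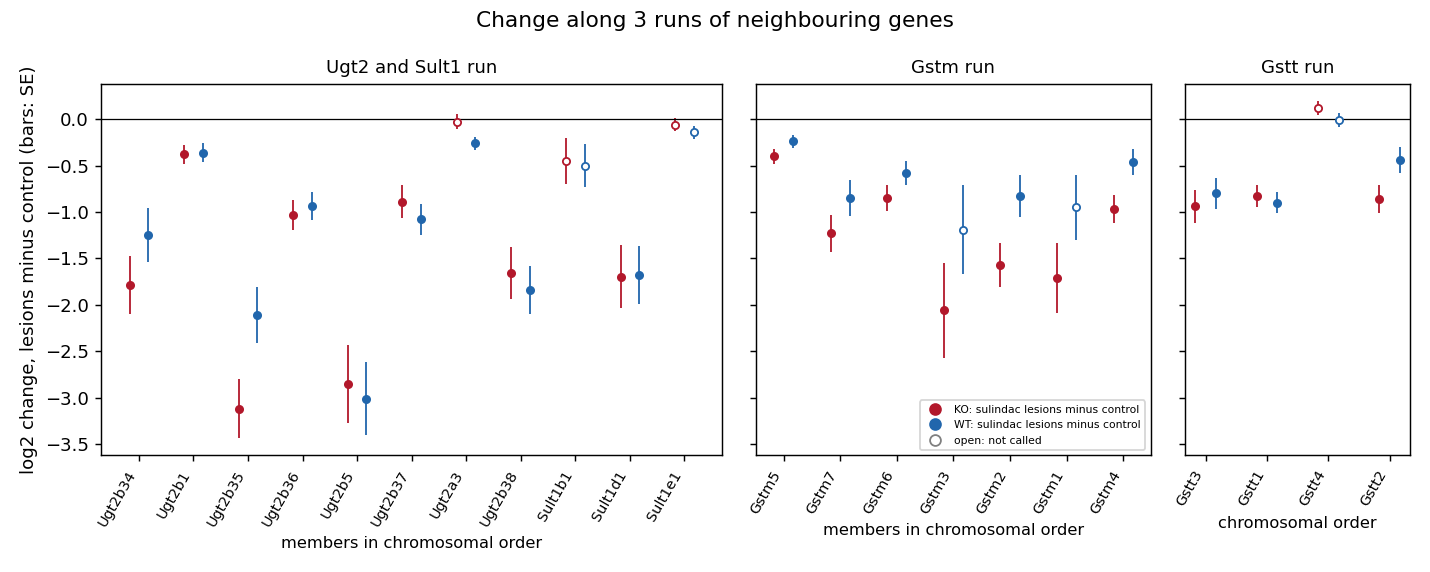
Log2 change, lesions minus control mucosa (y axis), of members in their chromosomal order along the Ugt2 and Sult1, Gstm and Gstt runs, with KO in red, WT in blue, SE bars and open points for members not called. Falls differ in size between direct neighbours, as at Ugt2b1 beside Ugt2b35, and Gstt4 and Sult1e1 stay near 0 within their runs. Ugt2b1, Gstt4 and Sult1e1 were dim in all 4 groups and had little room to fall.

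Among sulfotransferases, of which 11 of 19 were dim in all 4 groups, the calls were limited to a few genes. They were 3 of 6 Sult1 members lower in both genotypes, 1 Sult2 member lower in WT and 1 Sult4 member higher in KO. Sult1a1, which sulfonates small phenols, had the largest fall of any member in both genotypes. It was at 5.76, 8.97, 6.34 and 5.77 in KO lesions and 10.40, 10.06 and 10.71 in KO controls. In WT it was at 7.17, 7.26 and 5.99 in lesions, against 10.50 to 10.78 (median 10.69) in controls. Every lesion was below every control, and KO lesion 2 stood far above the other KO lesions. The change was -3.68 (SE 0.56, limma adjusted p = 0.000215) in KO and -3.85 (SE 0.52, adjusted p = 0.000118) in WT, or 12.8-fold and 14.4-fold lower. Without KO lesion 2 the KO change was -4.43. Sult1c2 had 5.40, 7.05, 5.06 and 4.75 in KO lesions, with 8.54, 8.32 and 8.61 in KO controls. WT lesions had 5.72, 6.83 and 5.58, and WT controls 8.23 to 8.85 with a median of 8.47. The groups stood apart, with changes of -2.93 (SE 0.41, limma adjusted p = 0.000108) in KO and -2.48 (SE 0.38, adjusted p = 0.000344) in WT.

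Sult1d1, which sulfonates catecholamines and phenols in the mouse, was at 8.61, 10.34, 8.78 and 8.97 in KO lesions and at 10.86, 10.46 and 11.31 in KO controls. WT lesions were at 9.10, 10.04 and 9.0, and WT controls at 10.88 to 11.20 (median 11.07). KO lesion 2 and KO control 2 differed by little, yet no lesion reached a control of its genotype. The change was -1.70 (SE 0.34, limma adjusted p = 0.0018) in KO and -1.68 (SE 0.31, adjusted p = 0.00156) in WT. Its neighbour Sult1b1, which acts on phenols and thyroid hormones, averaged 9.11 ± 0.41 in KO lesions and 9.56 ± 0.18 in KO controls (SD, n = 4 and 3). In WT it averaged 9.15 ± 0.65 in lesions and 9.66 ± 0.15 in controls (SD, n = 3 and 6), with overlapping arrays and no call in either. The oestrogen sulfotransferase Sult1e1 was dim in every group. All 7 members of the Sult2a bile acid and steroid sulfotransferases were dim in every group too, and the only call among them was Sult2a2 in WT at -0.24. The cholesterol sulfotransferase Sult2b1 was at -0.26 in KO and -0.40 in WT without a call. Sult4a1, a sulfotransferase known from brain, was 0.30 higher in KO (limma adjusted p = 0.0264), a call lost in 7 of 27 alternative settings, among them the series as a covariate and leaving out KO control 1, KO control 3 or KO lesion 2.

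The promoter windows of Sult1d1 and Gsta2 are shown because they are the members that hold TNGCGTG, the core bound by the aryl hydrocarbon receptor, and they moved in opposite directions. Both are on the minus strand of GRCm38.p6, Sult1d1 at chr5:87568957-87569256 and Gsta2 at chr9:78347096-78347395. Capitals mark the core, as its reverse complement in Sult1d1.
Sult1d1: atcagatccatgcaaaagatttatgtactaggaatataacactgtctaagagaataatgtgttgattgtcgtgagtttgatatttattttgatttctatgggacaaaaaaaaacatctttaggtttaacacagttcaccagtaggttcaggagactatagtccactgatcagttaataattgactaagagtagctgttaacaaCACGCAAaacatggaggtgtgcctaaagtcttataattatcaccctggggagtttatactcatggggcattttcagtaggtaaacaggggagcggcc
Gsta2: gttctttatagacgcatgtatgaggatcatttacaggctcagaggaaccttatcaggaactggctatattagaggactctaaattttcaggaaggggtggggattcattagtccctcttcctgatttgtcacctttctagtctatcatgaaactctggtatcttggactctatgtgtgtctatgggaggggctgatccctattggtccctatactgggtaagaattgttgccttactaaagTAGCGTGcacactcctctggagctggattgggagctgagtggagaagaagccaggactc

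Motifs were searched on both strands in the windows of members lower in both genotypes, 23 windows of 18 genes. TNGCGTG was in 1 of 23 (4.35%, Sult1d1) and in 5.06% of all windows, and in 1 of the 2 windows of members higher in both. TGACNNNGC, the core of the antioxidant response element bound by Nrf2, was in 2 of 23 (8.70%, Gstm5 and Gstm7) and in 12.4% of all windows. This core was in 0 of the 2 windows of members higher in both (Gstp3 and Gsta2). Among the remaining members it was in 2 of 32 windows (6.25%, Gsta3 and Mgst1). Only these letters in these windows were searched, and the motifs cannot be read as sites in use.

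The mu-class glutathione S-transferases, which conjugate epoxides and other electrophiles, had 7 of 7 members lower in KO (median -1.23) and 5 of 7 lower in WT (median -0.83). Gstm3 was at 6.58, 8.77, 8.52 and 6.71 in KO lesions and 9.97, 9.84 and 9.31 in KO controls. WT lesions were at 7.70, 8.05 and 8.87, and WT controls at 8.63 to 10.02 with a median of 9.56. KO lesions 1 and 4 stood well below KO lesions 2 and 3, and in WT the groups overlapped. The change was -2.06 (SE 0.51, limma adjusted p = 0.00872) in KO and -1.19 (SE 0.48, adjusted p = 0.111, no call) in WT. With the series as a covariate the KO value was -1.50 with an adjusted p of 0.319. Gstm1 split the KO lesions alike, with 7.98 and 8.03 in lesions 1 and 4 and 9.69 and 9.71 in lesions 2 and 3, and had 10.78, 10.65 and 10.24 in KO controls. In WT it had 9.28, 9.12 and 9.78 in lesions and 9.92 to 10.64 (median 10.41) in controls. Its change was -1.71 in KO (SE 0.38, limma adjusted p = 0.00414) and -0.95 in WT (SE 0.35, adjusted p = 0.0853, no call). The KO call of Gstm1 was lost with the series as a covariate (-1.43, adjusted p = 0.169). It was also lost in a fit of the KO arrays alone.

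Gstm2 was called in both genotypes. It was at 6.86, 7.88, 7.72 and 6.77 in KO lesions and 9.08, 8.94 and 8.61 in KO controls. WT lesions were at 7.58, 7.88 and 8.14, and WT controls at 8.38 to 8.98 (median 8.71). No lesion overlapped a control, and the change was -1.57 in KO (SE 0.24, limma adjusted p = 0.000251) and -0.83 in WT (SE 0.23, adjusted p = 0.0196). The WT call ended without WT lesion 1 (-0.69, adjusted p = 0.0996), without WT lesion 2 (-0.84, adjusted p = 0.0632), with the series as a covariate (-0.67, adjusted p = 0.101) and with the replicate number as a block (-0.81, adjusted p = 0.0921). Gstm7 had 5.69, 6.51, 6.34 and 5.78 in KO lesions, with 7.48, 7.41 and 7.02 in KO controls. It had 6.07, 6.32 and 6.58 in WT lesions and 6.87 to 7.43 (median 7.23) in WT controls. Its groups were apart in both genotypes, with a change of -1.23 in KO (SE 0.20, limma adjusted p = 0.000359) and -0.85 in WT (SE 0.19, adjusted p = 0.00504). Gstm4, Gstm6 and Gstm5 changed by -0.97, -0.85 and -0.40 in KO and by -0.46, -0.58 and -0.24 in WT, all called. With the series as a covariate, Gstm7, Gstm6 and Gstm5 lost the KO call (limma adjusted p = 0.0623, 0.115 and 0.227). Gstm2 and Gstm4 kept it. KO lesions 1 and 4 were below KO lesions 2 and 3 in every Gstm gene except Gstm5, which had lesion 1 at 7.03 and lesion 2 at 7.02. The WT call was lost in 9 of 28 alternative settings for Gstm4, whose WT arrays overlapped, and in 11 of 28 for Gstm5. The 7 genes form a run of their own on mouse chromosome 3, and the probes of such close copies may share signal, which was not tested.

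Theta-class genes form another run, on chromosome 10, and 3 of 4 were lower in each genotype. Gstt1, which handles small halogenated compounds, was 6.32 ± 0.14 in KO lesions and 7.15 ± 0.17 in KO controls, and 6.20 ± 0.08 in WT lesions and 7.10 ± 0.20 in WT controls (SD, n = 4, 3, 3 and 6). Its change was -0.83 in KO (limma adjusted p = 0.000135) and -0.90 in WT (adjusted p = 5.37e-05). Gstt3 and Gstt2 changed by -0.94 and -0.86 in KO and by -0.80 and -0.44 in WT, where the Gstt2 call was lost in 13 of 28 alternative settings. Both genes lost the KO call with the series as a covariate (limma adjusted p = 0.159 and 0.122), while Gstt1 kept it. The dim gene Gstt4 lies between Gstt1 and Gstt2 and was not called.

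Gstz1, the zeta-class enzyme that isomerises maleylacetoacetate in tyrosine breakdown, was at 5.64, 6.34, 6.48 and 5.81 in KO lesions and 7.53, 7.27 and 7.28 in KO controls. WT lesions were at 6.54, 6.68 and 6.90, and WT controls at 6.84 to 7.59 (median 7.19). All KO lesions lay below the KO controls, while WT lesion 3 lay within the WT controls. The change was -1.30 in KO (SE 0.21, limma adjusted p = 0.000336) and -0.51 in WT (SE 0.19, adjusted p = 0.0914, no call), and -0.75 in KO with the series as a covariate (adjusted p = 0.0861). Mgst2, a microsomal enzyme that can make leukotriene C4, was lower in both, at -0.99 in KO and -0.77 in WT, and lost the call in both with the series as a covariate and in WT also in 1 other of 28 settings. Gsto1, an omega-class enzyme with thioltransferase activity, was 0.35 lower on the log2 scale in KO, a call also lost with that covariate, and Gstk1, the kappa-class enzyme of mitochondria and peroxisomes, was called at -0.53 in WT (limma adjusted p = 0.048). The Gstk1 call was lost in 17 of 28 alternative settings.

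Rises were few. Gstp3, a pi-class glutathione S-transferase, was at 6.74, 6.56, 7.09 and 6.47 in KO lesions and 6.02, 6.01 and 5.78 in KO controls. WT lesions were at 6.66, 7.01 and 7.28, and WT controls at 5.47 to 6.22 (median 5.74). Every lesion was above every control of its genotype. The change was 0.78 in KO (SE 0.19, limma adjusted p = 0.0086) and 1.15 in WT (SE 0.18, adjusted p = 0.000366), or 1.71-fold and 2.22-fold higher. With the series as a covariate the KO change was 0.91 with an adjusted p of 0.0702. Gsta2, an alpha-class enzyme known as a target of Nrf2, averaged 7.81 ± 0.12 in KO lesions and 7.40 ± 0.12 in KO controls, and 7.93 ± 0.20 in WT lesions and 7.38 ± 0.22 in WT controls (SD, n = 4, 3, 3 and 6). Its change was 0.41 in KO (limma adjusted p = 0.0375) and 0.55 in WT (adjusted p = 0.00573), and the KO call was lost in 10 of 27 alternative settings. The bright gene Gstp1, the other pi-class member, was not called, with means of 10.19 ± 0.38 in KO lesions, 10.39 ± 0.18 in KO controls, 10.35 ± 0.18 in WT lesions and 10.25 ± 0.44 in WT controls. Gsta4, which clears the lipid peroxidation product 4-hydroxynonenal, had -0.40 in KO and -0.55 in WT without a call.

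Dim genes made up part of those not called. In 18 of 53 members all 4 group means were under 4.90, and 4 of these 18 passed in either response (Ugt2b37, Ugt2b1, Ugt2a3 and Sult2a2). Of the 35 others 25 passed in either response. The 24 members that passed in neither changed by -0.45 to 0.34 in KO and -0.55 to 0.60 in WT. Because a dim gene has little room to fall, the lack of a call says little about it.

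No member was called between the genotypes. Between KO and WT controls 0 of 53 were called by limma, where 0% of all genes were called, and 1 of 53 had an unadjusted p under 0.05, where 2.09% of all genes had one. The lowest p belonged to the dim genes Ugt2a3 (difference -0.17) and Sult2a3 (-0.10), each with a limma adjusted p of 1. Their KO controls at 2.89 to 3.10 and 2.50 to 2.62 overlapped the WT controls at 3.03 to 3.30 and 2.61 to 2.75. Mcc, the deleted gene, was not called between controls either (difference -0.60, SE 0.08, limma adjusted p = 0.083). The lack of a call there thus does not show equal levels. Between KO and WT lesions 0 members were called, where 0.306% of all genes were, and 6 had an unadjusted p under 0.05, where 13.4% of all genes had one. In the same comparison 2 of 4 neutrophil markers were higher in KO lesions. Gsto1 had the lowest p of the members, at 8.89, 8.78, 8.93 and 8.84 in KO lesions against 9.02, 9.21 and 9.07 in WT lesions. The arrays of Gsto1 did not overlap, and its difference was -0.24 (SE 0.07, limma adjusted p = 0.179). Mgst1, a microsomal enzyme that also reduces lipid peroxides, was at 7.25, 7.78, 7.98 and 7.57 in KO lesions and 8.16, 7.94 and 8.36 in WT lesions. Its controls were at 7.97, 7.69 and 8.03 in KO and at 7.61 to 7.99 (median 7.88) in WT. The lesion arrays overlapped at KO lesion 3, with a difference of -0.50 (SE 0.15, limma adjusted p = 0.188). Without KO lesion 3, Mgst1, Gstz1 and Gsta3 were called lower in KO lesions, so that 3 members passed in place of 0. The share of all genes called in that setting is not given here, so the 3 calls cannot be read as particular to the members. The interaction of genotype and sulindac had 0 members called, where 0.00326% of all genes were, and 7 with an unadjusted p under 0.05, where 11.1% of all genes had one. The lowest were Gstz1 (-0.78, SE 0.29, limma adjusted p = 0.406) and Mgst1 (-0.57, SE 0.21, adjusted p = 0.406). These misses do not show that the genotypes respond alike.

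Papss1 and Ugdh, which make the donors of sulfate and glucuronic acid, were lower in lesions of both genotypes. Of 6 genes of PAPS supply 5 were lower in KO and 2 in WT, and none was higher. Papss1, a PAPS synthase, averaged 8.28 in KO lesions and 9.61 in KO controls, and 8.45 in WT lesions and 9.65 in WT controls. Its change was -1.33 in KO (limma adjusted p = 7.76e-07) and -1.20 in WT (adjusted p = 1.55e-06), and Papss2, the other synthase, had -0.53 and -0.55. Of 3 genes of UDP-glucuronic acid supply 2 were lower in KO and 1 in WT. Ugdh, which oxidises UDP-glucose to UDP-glucuronic acid, changed by -1.32 in KO (limma adjusted p = 0.00143) and -1.34 in WT (adjusted p = 0.001).

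Glutathione supply was mixed, with 2 of 6 measured genes higher and 2 lower in each genotype. Slc7a11, the cystine importer, averaged 8.66 in KO lesions and 5.57 in KO controls, and 8.33 in WT lesions and 5.56 in WT controls. It rose by 3.08 in KO (limma adjusted p = 1.27e-08) and 2.78 in WT (adjusted p = 2.32e-08) on the log2 scale, and glutathione reductase Gsr by 0.51 and 0.67. Cbs and Cth, which make cysteine from homocysteine, changed by -1.28 and -1.34 in KO and -1.02 and -1.08 in WT. Gclc, the catalytic subunit of the rate-limiting ligase, and Gss were not called in either.

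Among 6 exporters of conjugates and drugs, 2 were higher and 2 lower in KO, and 1 was higher and 2 lower in WT. Abcc4 rose by 1.22 in KO and 1.20 in WT on the log2 scale, while Abcb1a, the drug pump P-glycoprotein, changed by -0.78 in KO and -1.27 in WT. Abcg2, which exports sulfate conjugates, had -0.64 in KO (limma adjusted p = 0.0535, no call) and -0.92 in WT (adjusted p = 0.00569). Among 4 measured genes that undo or process conjugates, Dpep1, a dipeptidase that trims glutathione conjugates, changed by -2.03 in KO and -1.82 in WT. Gusb, the lysosomal glucuronidase, rose by 0.44 in KO and 0.87 in WT, and Arsb was lower in KO (-0.45). Of 7 measured genes of other conjugation routes 2 were lower in KO and 1 in WT, with Baat, which joins bile acids to amino acids, at -0.50 in KO and -0.62 in WT, and Tpmt at -0.75 in KO and -0.56 in WT, the last not called.

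Regulators of these enzymes had 6 of 15 measured genes lower in KO, 5 lower in WT and none higher. Ppargc1a, a metabolic coactivator, changed by -1.85 in KO and -1.55 in WT, and the nuclear receptor genes Vdr and Ppara by -1.14 and -0.76 in KO and by -0.77 and -1.02 in WT. Cdx2, an intestinal identity factor, changed by -0.64 in KO and -0.36 in WT, and Nfe2l2, which encodes Nrf2, by -0.35 and -0.46. The xenobiotic receptor genes Nr1i2 and Ahr and the gene Hnf4a were not called in either genotype. These lists were chosen with results of these data known, and their counts stand beside 12.1% lower and 8.99% higher of all genes in KO and 8.37% lower and 6.98% higher in WT. No gene of these pathway lists was called between KO and WT lesions.

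**Figure D4:**
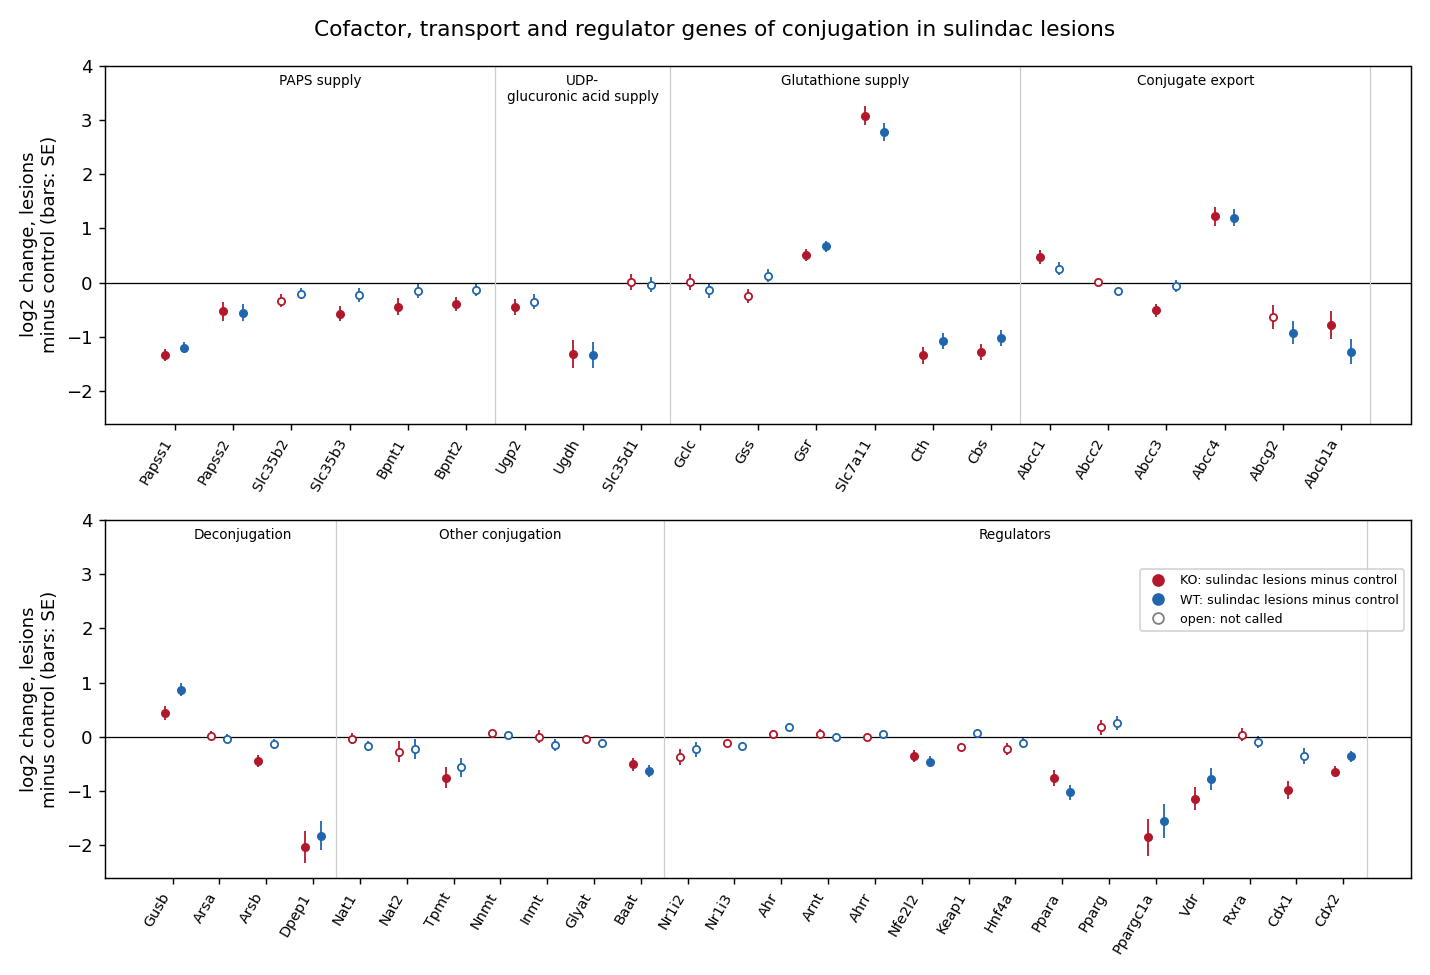
Log2 change, lesions minus control mucosa (y axis), of the measured genes of donor supply, export, deconjugation, other conjugation and regulation, with KO in red, WT in blue, SE bars and open points for genes not called. Slc7a11 and Abcc4 stand highest in both genotypes, and Dpep1, Ppargc1a, Papss1 and Ugdh are among the lowest.

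Levels of cell type markers also differed between lesions and controls. Of the 8 absorptive colonocyte markers 3 were lower and 1 higher in KO, and 4 were lower and 1 higher in WT. The ion exchanger gene Slc26a3 changed by -2.22 in KO and -1.74 in WT, and Guca2a, which encodes guanylin, by -1.67 and -1.59, while Krt20 was 0.43 and 0.28 higher. The lesion with the highest absorptive sum in each genotype was lesion 2, at 14.67 in KO and 14.53 in WT. KO lesion 2 had the highest levels of Ugt2b5, Ugt2b35, Ugt2b34, Sult1a1, Sult1c2 and Sult1d1 among KO lesions, and also the highest leukocyte sum, 11.10. WT lesion 2 was the highest WT lesion for the same genes except Ugt2b5. The order of the arrays did not match throughout. KO lesion 3 had the lowest absorptive sum, 14.03, yet was above KO lesions 1 and 4 for Ugt2b5, Ugt2b35, Ugt2b34 and Sult1a1. For Sult1c2 and Sult1d1 it lay between them. None of the 8 pan-epithelial markers was lower in either genotype, and 4 were higher in KO. Leukocyte markers were higher in 5 of 5 in KO and 4 of 5 in WT, and fibroblast, macrophage and neutrophil markers in 4 of 4 each in both. The neutrophil markers summed to 11.06 to 12.97 in KO lesions and 6.73 to 6.82 in KO controls, and to 9.78 to 11.17 in WT lesions against 6.76 to 7.02 in WT controls. When each array was centred on the pan-epithelial markers, which moved the median of all genes by -0.22 in KO and -0.14 in WT, 33 members were lower and 1 higher in KO, where 35.4% of all genes were lower and 5.01% higher. In WT 40 members were lower and 2 higher under it, where 33.1% of all genes were lower and 4.71% higher. The added calls included dim genes. The 2 Ugt3 and 2 Sult3 genes, dim in every group, were lower in both genotypes under this centring and not called without it. No called member changed direction under that centring or under centring on the median of all genes. What part cell composition had in these changes was not tested.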

How the data were processed

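Expression was measured on Affymetrix arrays in 16 samples of mouse proximal colon mucosa. The deposited values are log2 levels, 1 per row and array, made with RMA in Affymetrix Power Tools 1.16.1 per the submitters' processing notes; a genome build is not given in the sources used here. Arrays have no read depth, and their number limits the precision.

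Of 72688 rows, 31258 carry 1 gene symbol, 1492 carry several and 39938 are not in the annotation table. The row with the highest mean was kept per gene, which left 30702 genes. A fit of 4 group means to all 16 arrays was made with limma 3.58.1 in R 4.3.3, with Benjamini-Hochberg adjustment over all genes and a two-sided threshold of 0.05. The script was tested on simulated data. The contrasts were the sulindac response in KO and in WT, KO minus WT on each diet, and their interaction. The name rule for members uses no values, but it and the gene lists were chosen with earlier results of these data known. Each array (the range and median for the 6 WT controls) is given for members called with a log2 change of at least 1, or for the 2 lowest p where none was called; Gsta2, Gstt1 and others are given by mean or range. Besides the TNGCGTG and TGACNNNGC searches, 1 further planned motif is not reported here, and the printed stretches were chosen after the sequences were seen.

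Alternatives covered centring, dim rows, row choice, array weights, the number series, blocking, fits of only the groups compared and leaving out each array. Arrays of a group correlated at 0.980 to 0.991, with at most 0.0289% identical values, so none was taken as a duplicate. KO and WT lesions of the same replicate number had correlated deviations from their group means (0.465, 0.296 and 0.54). There 6 of 6 arrays correlated best with their own number, and what the numbers share is not stated. Correlations for the WT response were 0.347, 0.171 and 0.097, with 6 of 6 arrays correlating best with their own number. For the KO response and between KO and WT controls the correlations were negative. Python 3.11.15 with pandas 2.3.3, numpy 2.4.6 and matplotlib 3.10.9 was used for tables and plots.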

Additional observations from a re-analysis of the deposited data

Results flagged for a closer look

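A single value of 1 gene stood apart from the rest of its group. Ugt3a1 was at 2.85 in KO lesion 1, and the other 3 KO lesions were all at 2.69, so that the gap took a share of 0.964 of the group's range. The gene was dim in every group. In all, 106 sets of values were looked at, each of 1 gene in 1 group of 4 or 6 arrays. Of these sets 1 (0.943%) stood out in this way, where chance gives about 5%. Groups of 3 arrays were not looked at.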

How the results depend on the processing

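Of the 15 members with a called change of at least 2-fold, 823 values under alternatives were computed, and 0 changed direction. For the 27 responses called at first, 727 of 739 values kept the call and 12 lost it. For the other 3 (Gstm1, Gstm3 and Gstz1 in WT), 7 of 84 values gained a call. Sult1a1, Sult1c2, Sult1d1, Ugt2b5, Ugt2b35, Ugt2b36, Ugt2b38 and Gstt1 kept their calls in both responses under every alternative run. In WT, 24 members were called, and 42 when arrays were centred on pan-epithelial markers, a centring under which 33.1% of all genes were lower. In KO, 26 were called, and 11 when the number series entered as a covariate, which is estimated from the WT controls alone. With each array left out in turn, called members numbered 24 to 27 in KO, 18 to 25 in WT, 0 to 3 between KO and WT lesions (3 without KO lesion 3), 0 between controls and 0 for the interaction. The shares of all genes called in those fits are not given here. The replicate block left 13 calls in WT, all shared with the fit without it (11 lower, where 6.04% of all genes were lower and 5.48% higher). It left 25 calls in KO, where 10.7% of all genes were lower and 8.22% higher. The residual degrees of freedom with the block were 7 in place of 12. The main fit used no pairing by replicate number in any comparison. For the WT response the correlations were 0.347, 0.171 and 0.097, and 6 of 6 arrays correlated best with their own number. The WT counts of the main fit therefore depend on that choice. The block changed no member's call between KO and WT lesions, where 0 were called. Causes of these shifts were not tested. Signal near background limits what can be said of the 18 dim members.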
